A study of Homo sapiens with 4 samples.

Results

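The regions described here are the sites of the transcription factor BACH1 on the distal part of human chromosome 20, from 29.5 Mb (hg19) to the last site near the end of the long arm. They were mapped by chromatin immunoprecipitation sequencing (ChIP-seq), which recovers the DNA bound by a protein with an antibody and locates it by sequencing. Calu3 is a human lung adenocarcinoma line and 16HBE14o- a human bronchial epithelial line, both grown in DMEM with fetal bovine serum and precipitated with the same rabbit antibody against BACH1. No treatment is given for either line, and each line contributed 2 replicates that the authors combined into 1 list of reproducible peaks. Members were selected on the position of each site's summit alone. A site belonged to the set when this summit, the position of highest signal, lay at 29500000 bp or beyond on chromosome 20. This gave 322 of the 3415 rows of the 16HBE14o- list and 345 of the 10246 rows of the Calu3 list. Overlapping rows were merged, after which 318 of 3393 regions of 16HBE14o- and 345 of 10246 of Calu3 remained, 663 of 13639 in all. The name long arm rests on this position alone, since no map of the centromere was used. Each list is pooled, so there is no replicate spread for any value, and read depth is unknown.

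BACH1 is a basic leucine zipper protein that pairs with small MAF proteins and binds antioxidant response elements, where it holds back genes of haem breakdown, iron storage and glutathione supply. Haem binds BACH1 and releases it from DNA, which lets the activator NRF2, a relative that uses the same elements, take its place. In airway epithelium these genes protect cells that are exposed to inhaled oxidants. Because the RefSeq gene table at hand, for GRCh38.p14, is on another build than the peaks, no region was assigned to a gene and no sequence was read.

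The stretch itself was chosen by the number of regions that the lists held there, so its share of each list is a description. It held 9.37% of the 16HBE14o- list (95% interval 8.41 to 10.4) and 3.37% of the Calu3 list (95% interval 3.03 to 3.73). Intervals here and below are exact binomial (Clopper-Pearson) and cover counting error only. Over the 33.4 Mb of the stretch this came to 9.52 regions per Mb in 16HBE14o-, against 1.17 per Mb over the span of the whole list, and to 10.3 per Mb in Calu3, against 3.46. Below the boundary, chromosome 20 held 0.884% of the 16HBE14o- list (30 regions) and 0.683% of the Calu3 list (70 regions). In the stronger 50% of each list by column 7, the stretch held 7.13% of 16HBE14o- and 1.64% of Calu3, and 2.24% of Calu3 when limited to a deposited q under 0.05. The boundary fell in an empty interval. The nearest Calu3 regions outside it had summits at 26190120, 26188977 and 25488904, with fold enrichments of 4.77, 7.15 and 6.73. The nearest inside had summits at 29625904, 30018743 and 30132326, with fold enrichments of 3.47, 3.19 and 2.51. In 16HBE14o- the nearest summits outside were at 25388292, 25176308 and 24911266 (signals of 28.8, 32.3 and 48.1) and those inside at 30130172, 30148104 and 30160706 (signals of 25.5, 60.5 and 29.2). The last region was bound in both lists, from 62918082 to 62918321 in 16HBE14o- and from 62917952 to 62918352 in Calu3, with summits 10 bp apart.

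In steps of 2 Mb the sites were uneven along the stretch. The first step is cut short by the boundary and the last by the end of the sites. In 16HBE14o- the 17 steps after the first held between 1 and 56 regions, with a median of 18, and in Calu3 between 6 and 44, with a median of 21. The fullest step of 16HBE14o- lay from 48 to 50 Mb and held 56 regions, 17.6% of its regions on the stretch, and Calu3 had 39 there. The fullest step of Calu3 lay from 60 to 62 Mb and held 44 regions, 12.8% of its regions on the stretch, while 16HBE14o- had 28 there. At 42 to 44 Mb 16HBE14o- held 32 regions and Calu3 held 21. The numbers were far apart at 40 to 42 Mb, where 16HBE14o- had 1 region and Calu3 had 15, and at 54 to 56 Mb, where 16HBE14o- had 15 and Calu3 had 6. Step by step, 16HBE14o- had the higher number of regions in 5 of 18 steps, Calu3 in 12, and the numbers were equal at 30 to 32 Mb, with 22 each. As a share of its own list, 16HBE14o- was higher in 16 of the 17 steps after the first. The exception was 40 to 42 Mb. The stretch, chosen by its number of regions, held 9.37% of the 16HBE14o- list and 3.37% of the Calu3 list. The shares by step follow in part from that choice and are a description. With Calu3 limited to regions of q under 0.05, its fullest step became 48 to 50 Mb, with 30 regions.

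**Figure D1:**
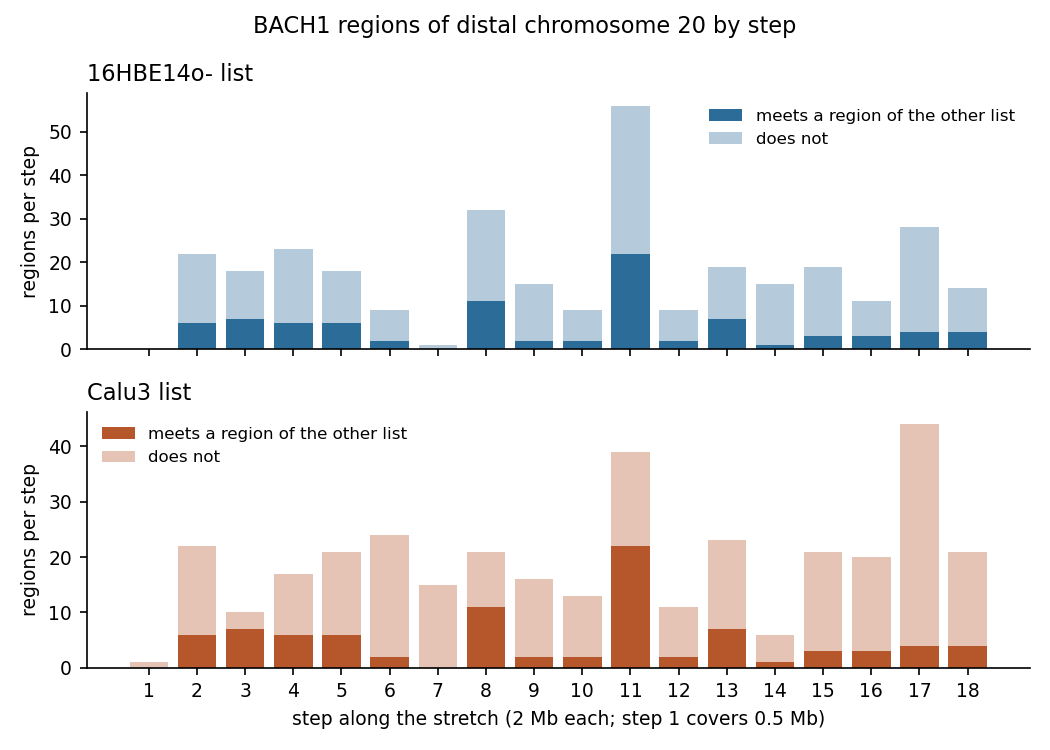
Number of BACH1 regions in each 2 Mb step of the stretch (step 1 is the 0.5 Mb before 30 Mb, step 11 is 48 to 50 Mb, step 17 is 60 to 62 Mb), for 16HBE14o- above and Calu3 below. Dark bars are regions that meet a region of the other list and pale bars are the rest. Step 11 holds 22 shared regions in both lists, and step 7 holds 1 region of 16HBE14o- against 15 of Calu3.

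Sites of the stretch ranked low within their lists. Strength was ranked within each list by the authors' column 7, a fold enrichment in Calu3 and a signal on an unstated scale in 16HBE14o-. It is given as a percentile from 0 (weakest) to 100 (strongest), so that the median of a whole list is 50. The median percentile of the regions on the stretch was 38.8 in 16HBE14o- (interquartile range 15.0 to 66.4) and 26.0 in Calu3 (interquartile range 13.6 to 48.6). The corresponding median signal in 16HBE14o- was 27.6, with a range from 8.95 to 174, against a median of 30.1 over the list. The median fold enrichment in Calu3 was 3.18, with a range from 1.69 to 23.9, against a median of 4.13 over the list. In the strongest decile stood 16 regions of the stretch in 16HBE14o- (5.03%, 95% interval 2.90 to 8.04), against 9.99% of the list. In Calu3 the strongest decile held 11 (3.19%, 95% interval 1.60 to 5.63), against 10.0% of the list. The weakest decile held 56 regions of the stretch in 16HBE14o- (17.6%, 95% interval 13.6 to 22.3), against 9.99% of the list. In Calu3 it held 59 (17.1%, 95% interval 13.3 to 21.5), against 10.0% of the list.

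The authors' other columns placed the sites alike. A deposited q under 0.05 was recorded for 168 of the 345 Calu3 regions (48.7%, 95% interval 43.3 to 54.1), against 73.3% of the list, and 64 of the remaining 177 had a −log10 q of 0. In 16HBE14o- column 9, a score whose meaning is not given, was at its highest value for 70 of the 318 regions (22.0%, 95% interval 17.6 to 27.0), against 31.1% of the list. These were the regions of the stretch with a signal of 37.87 or more. The highest value of column 9 thus marked a cut in column 7 there, so this count is no separate measure of strength. Below that value the 2 orders differed in places, with a column 9 of 2.40 at a signal of 33.6 and of 2.36 at 35.2. When chromosomes with 50 or more regions were ordered by median percentile, with chromosome 20 divided at the boundary, the stretch came lowest of 22 in 16HBE14o- and lowest of 24 in Calu3. Next lowest was chromosome 3 in both lists, with medians of 40.8 and 34.1. It was kept whole in this order. In Calu3 its part from 90 Mb onwards had a median of 27.1, close to the 26.0 of the stretch. The weakest Calu3 decile held 21.4% of the regions of that part, against 17.1% on the stretch. In 16HBE14o- the same part had a median of 48.3, with 7.92% of its regions in the weakest decile. The part of chromosome 20 below the boundary stood at the other end in Calu3, with the highest median of the 24 (68.2, 70 regions). In 16HBE14o- that part had a median of 53.7 over 30 regions.

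**Figure D2:**
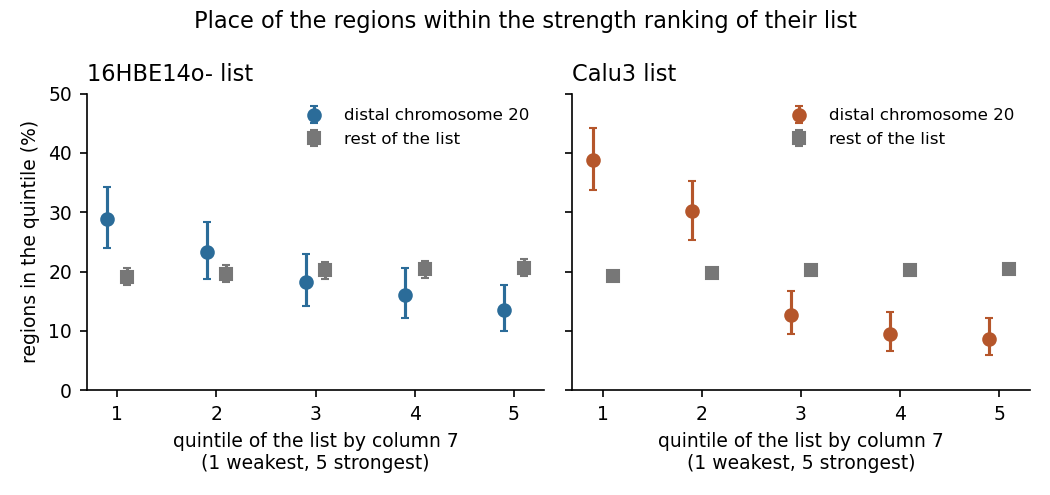
Percent of regions that fall in each quintile of their list by column 7 (quintile 1 is the weakest), for the regions of the stretch (circles) and for the rest of the list (squares), with 95% exact binomial intervals. In Calu3 the weakest quintile holds 38.8% of the regions of the stretch and the strongest quintile 8.70%, and in 16HBE14o- these are 28.9% and 13.5%.

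**Figure D3:**
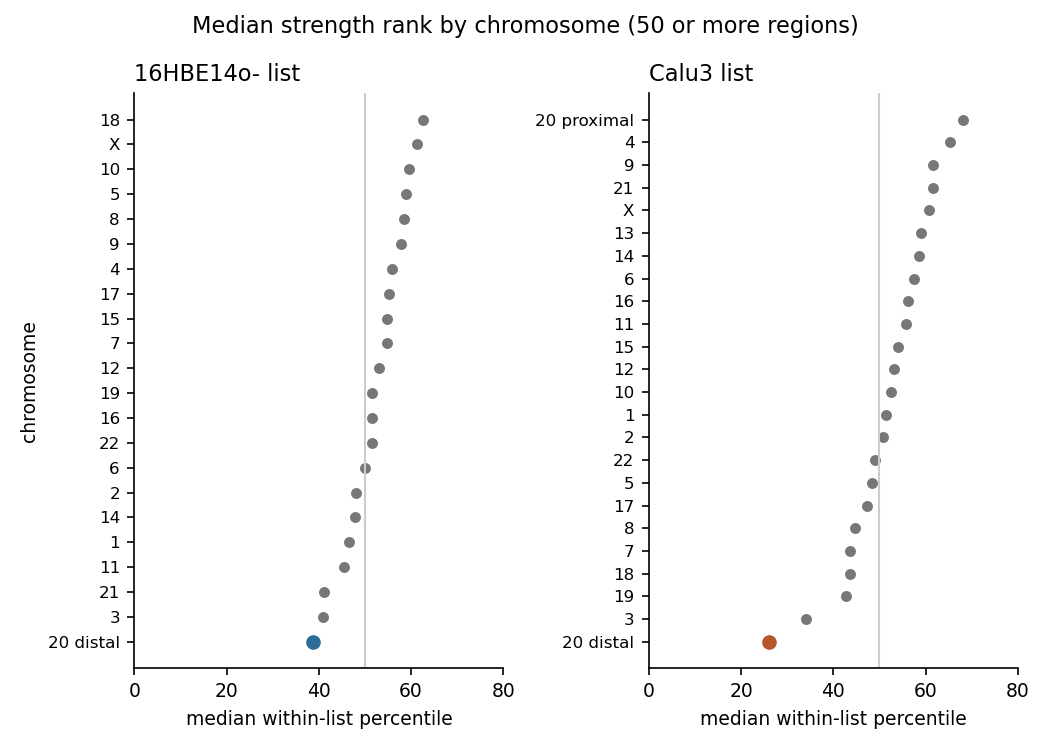
Median within-list percentile of column 7 for each chromosome with 50 or more regions, with chromosome 20 divided at the boundary (distal, large coloured point). The grey line marks 50, the median of a list. The distal part lies lowest in both lists, at 38.8 in 16HBE14o- and 26.0 in Calu3. No other chromosome was divided, and the Calu3 median of chromosome 3 from 90 Mb onwards, not drawn, was 27.1.

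Strength also varied along the stretch. Among steps with 5 or more regions, the median percentile ran from 13.7 (58 to 60 Mb, 11 regions) to 53.7 (38 to 40 Mb, 9 regions) in 16HBE14o-, and was above 50 in 2 of 16 such steps. In Calu3 it ran from 16.3 (44 to 46 Mb, 16 regions) to 45.1 (48 to 50 Mb, 39 regions), and was above 50 in none of 17. The step from 48 to 50 Mb thus had the highest median in Calu3, and in 16HBE14o- its median of 52.1 was the other of the 2 above 50. The fullest Calu3 step, 60 to 62 Mb, was one of the weakest. Its median percentile was 20.1, its strongest region had a fold enrichment of 8.19 (rank 1584), and 9 of its 44 regions had a q under 0.05, against 30 of 39 at 48 to 50 Mb.

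Regions of the 2 lists that had 1 bp or more in common were counted as shared. On the stretch 88 regions of each list were shared, in 88 separate pairs. They made up 27.7% of the 16HBE14o- regions (95% interval 22.8 to 32.9), against 46.5% of that list. In Calu3 they made up 25.5% (95% interval 21.0 to 30.4), against 15.3% of that list. With Calu3 cut to its 3393 strongest regions, the length of the other list, the stretch kept only 55 of its 345 Calu3 regions. Then 33 of 318 regions of 16HBE14o- (10.4%) and 33 of 55 of Calu3 (60.0%) were shared, against 31.1% and 30.9% over the lists. The 2 lists together marked 575 places on the stretch, of which 230 were in the 16HBE14o- list without a Calu3 region and 257 in the Calu3 list without a region of 16HBE14o-. Of the chromosomes with 50 or more regions, the stretch had the lowest shared percentage of 22 in 16HBE14o- and the fourth highest of 24 in Calu3, where chromosomes 16, 14 and 22 had 26.8%, 26.4% and 26.4%. The stretch was denser than the list in both lines, as given above, and the shared percentage was below that of the list in 16HBE14o- and above it in Calu3. An unshared 16HBE14o- region of the stretch had a median distance of 24.2 kb to the nearest Calu3 summit, against 58.3 kb over the list, and an unshared Calu3 region had one of 36.1 kb to the nearest 16HBE14o- summit, against 333 kb. Both shared percentages count the same 88 pairs, so they depend on how many regions each list held on the stretch. The stretch was chosen by these numbers, so the 2 directions are a description. The part of density in the shared percentages was not tested.

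Stronger sites were shared more often on the stretch. The median percentile was 68.0 for shared and 28.5 for unshared regions of 16HBE14o-, and 47.8 for shared and 22.1 for unshared regions of Calu3. In the strongest quintile of the 16HBE14o- list, 28 of 43 regions of the stretch were shared (65.1%, 95% interval 49.1 to 79.0), against 564 of 636 in the rest of the list (88.7%, 95% interval 86.0 to 91.04). In the weakest quintile 5 of 92 were shared (5.43%, 95% interval 1.79 to 12.2), against 18.6% in the rest. In Calu3 the strongest quintile had 18 of 30 shared (60.0%, 95% interval 40.6 to 77.3), against 823 of 2021 in the rest (40.7%, 95% interval 38.6 to 42.9), and the weakest quintile had 21 of 134 (15.7%, 95% interval 9.97 to 23.0), against 3.71%. With the sharing that the rest of the list had in the same deciles of strength, the shared percentage would have been 41.1 in 16HBE14o- and 9.01 in Calu3, against the 27.7 and 25.5 observed. Strength was matched there, but not the number of regions in each list. Where the Calu3 q was 0.05 or higher, 19 of 177 regions were shared (10.7%, 95% interval 6.59 to 16.2), against 103 of 2731 in the list (3.77%). Among those with a q under 0.05, 69 of 168 were shared (41.1%, 95% interval 33.6 to 48.9), against 19.5% of the list.

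**Figure D4:**
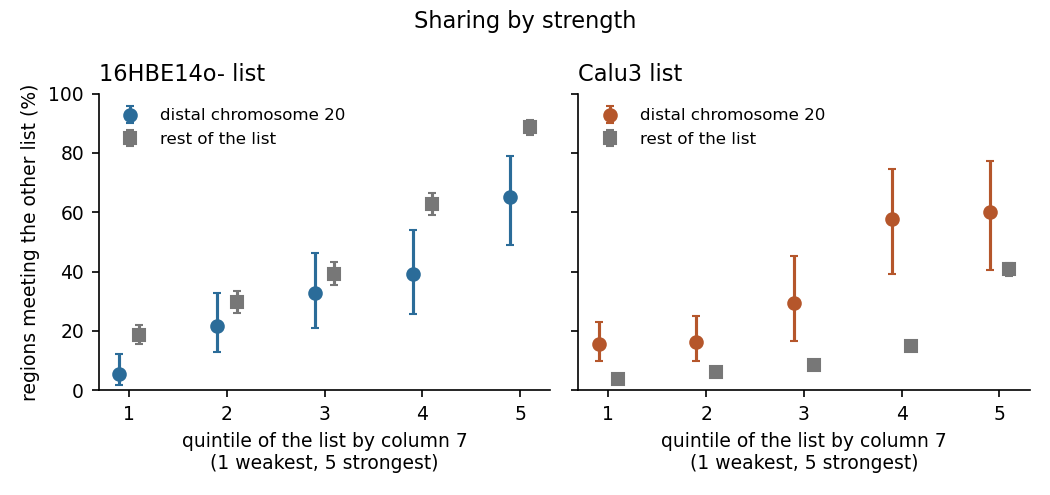
Percent of regions that meet a region of the other list, by quintile of the list by column 7 (quintile 1 is the weakest), for the regions of the stretch (circles) and the rest of the list (squares), with 95% exact binomial intervals. Circles lie below squares in every quintile of 16HBE14o- and above them in every quintile of Calu3. The circles of both panels count the same 88 pairs, and the stretch was chosen by its numbers of regions.

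Pairs were found in 16 of the 18 steps. From 48 to 50 Mb there were 22 and from 42 to 44 Mb 11, and 55 of the 88 lay in other steps. In 16HBE14o- the shared percentage was 39.3 at 48 to 50 Mb (95% interval 26.5 to 53.2) and 34.4 at 42 to 44 Mb (95% interval 18.6 to 53.2), and both intervals include the 27.7 of the whole stretch. It was similar at 32 to 34 Mb (7 of 18 regions, 38.9%), 52 to 54 Mb (36.8%) and 36 to 38 Mb (33.3%). In Calu3 the shared percentage was 56.4 at 48 to 50 Mb (95% interval 39.6 to 72.2), 52.4 at 42 to 44 Mb (95% interval 29.8 to 74.3) and 70.0 at 32 to 34 Mb (7 of 10 regions, 95% interval 34.8 to 93.3), against 25.5 on the whole stretch. None of the 16 regions from 40 to 42 Mb was shared, 1 pair lay at 54 to 56 Mb, and 4 pairs lay at 60 to 62 Mb, among 28 and 44 regions.

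The site of the stretch with the best combined rank was chr20:43803184-43803423, with a signal of 94.6 (rank 152) in 16HBE14o- and a fold enrichment of 16.2 (rank 352) in Calu3. It was followed by chr20:48909166-48909405, at rank 355 of 16HBE14o- and, with a fold enrichment of 18.1, at rank 258 of Calu3, and by chr20:48782684-48782923, which ranked 107 and 521. These 3 sites were strong in both lists, and the latter pair lay in the step from 48 to 50 Mb. Next came chr20:42832885-42833124 (ranks 52 and 692), chr20:50303636-50303875 (ranks 354 and 458) and chr20:52740317-52740556 (ranks 365 and 561), with the 16HBE14o- rank given before that of Calu3. The remaining places among the 10 were chr20:55379679-55379746 (ranks 30 and 1046), chr20:33900245-33900484 (ranks 381 and 901), chr20:48334300-48334539 (ranks 535 and 832) and chr20:42187146-42187385 (ranks 920 and 483). Within these 10 pairs the summits lay from 8 to 57 bp apart.

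By signal alone, the strongest 16HBE14o- site of the stretch was chr20:55379679-55379746, with a signal of 174 and rank 30 in its list. Its row was 68 bp wide, where 98.4% of the 16HBE14o- regions of the stretch were 240 bp wide, and its Calu3 counterpart had a fold enrichment of 10.1. The next was chr20:42832885-42833124, with a signal of 144 (rank 52) and a Calu3 fold enrichment of 12.1. Of the 10 strongest 16HBE14o- sites 6 were shared, and the others of these were chr20:48782684-48782923 (signal 107), chr20:49378238-49378477 (99.5), chr20:43803184-43803423 (94.6) and chr20:49178142-49178381 (89.2). Among the 16 regions of the stretch in the strongest decile of 16HBE14o-, 10 were shared (62.5%, 95% interval 35.4 to 84.8), against 93.2% of the 339 in the decile as a whole.

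The 4 unshared sites among the 10 strongest of 16HBE14o- had no Calu3 summit within 500 bp either. They were chr20:36825015-36825254 (signal 135, rank 63), chr20:50720085-50720324 (signal 120, rank 80), chr20:49292612-49292851 (signal 95.7, rank 148) and chr20:60641011-60641250 (signal 87.5, rank 193). The next unshared site was chr20:56678043-56678282 (signal 78.8, rank 245). Their distances to the nearest Calu3 summit ran from 2.29 kb, for the site of rank 148, to 87.8 kb, for the site of rank 80. Since the depth is not known, a place missing from a list may still have been bound.

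In Calu3 the strongest site of the stretch stood apart from the rest. It was chr20:40272123-40272730, with a fold enrichment of 23.9 (rank 99) and a −log10 q of 165, and it had no counterpart in 16HBE14o-, whose nearest summit was 49.7 kb away. It lay in the step from 40 to 42 Mb, where the next strongest Calu3 region had a fold enrichment of 6.57 and the single 16HBE14o- region had a signal of 24.1 (rank 2705). The other 9 of the 10 strongest Calu3 sites were shared. They ran from chr20:48909087-48909671 (fold enrichment 18.1) to chr20:33900225-33900590 (fold enrichment 10.8), and their 16HBE14o- ranks ran from 52 to 920. Among the 11 regions of the stretch in the strongest decile of Calu3, 9 were shared (81.8%, interval 48.2 to 97.7). In that decile as a whole, 53.5% of the 1026 regions were shared, a percentage inside this interval. The strongest unshared Calu3 sites after the top one were chr20:47599955-47600470 (fold enrichment 10.4, rank 985), chr20:52961787-52962150 (10.1, rank 1077), chr20:34755714-34756178 (9.53, rank 1182) and chr20:52749909-52750293 (9.14, rank 1282). The last of these lay 0.549 kb from a 16HBE14o- summit, just outside the limit of 500 bp.

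Pairs were defined by overlap, so close summits follow in part from the definition, and their distances are given as a description. The median distance between paired summits was 23 bp (interquartile range 11 to 49), and 67 of 88 pairs (76.1%) had summits within 50 bp, against 19 bp and 87.5% over all 1579 pairs of the lists. Across the 88 pairs the percentiles had a Spearman's rho of 0.50, against 0.53 over all pairs. The regions of a list share their libraries and are not independent, so this is a description. Both members were above the median of their list in 34 of the 88 pairs (38.6%), against 62.0% of all pairs. In 26 pairs (29.5%) this held for 16HBE14o- alone, against 11.1% of all pairs, in 9 (10.2%) for Calu3 alone, against 17.5%, and in 19 (21.6%) for neither, against 9.44%. The most uneven pair, named after its values were seen, was chr20:43321644-43321883, at percentile 88.3 in 16HBE14o- (signal 62.6) and 0.966 in Calu3 (fold enrichment 2.05), with summits 4 bp apart. In chr20:52406183-52406422 the percentiles were 93.3 and 12.5, and in chr20:32699933-32700172 they were 77.0 and 6.89. The opposite order was most uneven in chr20:36755064-36755303, at 2.52 in 16HBE14o- and 69.6 in Calu3, and in chr20:49354034-49354273, at 8.21 and 64.2. Beside the former lay a stronger 16HBE14o- region, chr20:36754715-36754954 (signal 29.2, percentile 46.1). Its summit was 0.27 kb from the same Calu3 summit, but it did not overlap the Calu3 region and so was not paired.

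**Figure D5:**
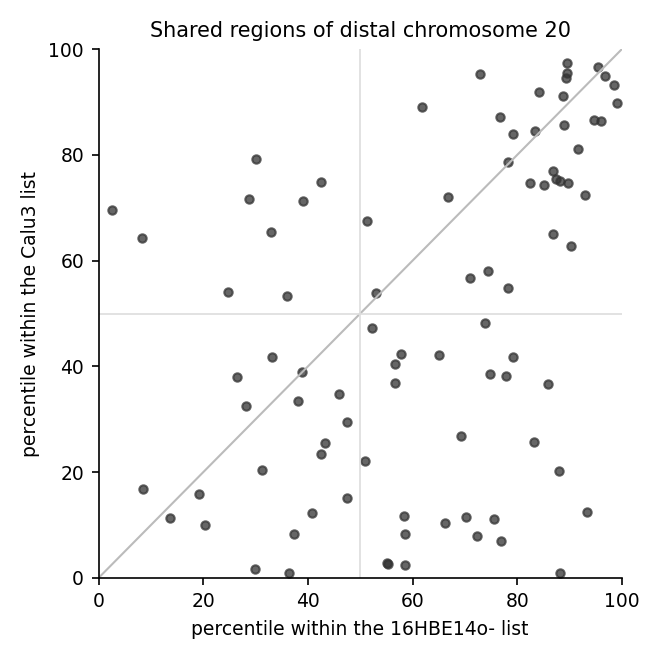
Percentile of column 7 within the 16HBE14o- list (x axis) and within the Calu3 list (y axis) for the 88 shared pairs of the stretch, 1 point per pair. The diagonal marks equal percentiles and the grey lines mark 50. Of the points, 59 lie below the diagonal and 29 above it, a split not counted over all pairs. Median percentiles of the pairs were 68.0 in 16HBE14o- and 47.8 in Calu3, against 72.0 and 82.4 over all pairs.

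The spacing of sites follows in part from the choice of the stretch by its number of regions, and is given as a description. Of the 317 distances between neighbouring 16HBE14o- summits, 127 were under 25 kb (40.1%, 95% interval 34.6 to 45.7), against 17.3% over the list. Of the 344 in Calu3, 120 were (34.9%, 95% interval 29.9 to 40.2), against 22.1%. The median distance was 38.9 kb in 16HBE14o- and 47.7 kb in Calu3, against 217 kb and 114 kb over the lists. Calu3 sites of chromosome 3 from 90 Mb onwards were spaced much the same, with 35.5% of distances under 25 kb (95% interval 32.6 to 38.5) and a median of 45.6 kb. In 16HBE14o- 12 of the 100 distances there were under 25 kb, and the median was 358 kb. Joining neighbours under 25 kb apart gave 28 groups of 3 or more regions in 16HBE14o-, which held 125 of its 318 regions, and 25 in Calu3, which held 92 of its 345. In 16HBE14o- 33.6% of the grouped regions and 23.8% of the others were shared. In Calu3 these values were 26.1% and 25.3%. The grouped regions also had the higher median percentile, 42.4 against 36.3 in 16HBE14o- and 28.2 against 24.1 in Calu3. Groups were not counted over the whole lists.

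The largest 16HBE14o- group had 10 regions over 101 kb, chr20:36738367-36839506, of which 4 were shared. It held both the site of rank 63 that lacks a Calu3 counterpart and regions down to rank 3308. The next had 9 regions over 46.1 kb, chr20:49332357-49378477, with signals from 14.7 to 99.5 and 3 shared, while Calu3 had 2 summits between its outermost summits. Groups of 7 lay at chr20:30130052-30200912 (4 shared), chr20:43964404-43988661 (2 shared) and chr20:60925137-60945346 (2 shared). In Calu3 the largest group had 9 regions over 66.5 kb, chr20:30132262-30198745, and lay inside the first of those groups of 7. Its fold enrichments ran from 2.51 to 6.30, 6 of the 9 had a q under 0.05 and 4 were shared. Calu3 groups of 5 lay at chr20:36754987-36802054 (4 shared), chr20:52517652-52543515 (1 shared) and chr20:52732477-52789910 (1 shared), and 5 groups had 4, of which the first along the stretch was chr20:31142504-31172718 (1 shared). The Calu3 group of 5 that starts at 36754987 lay inside the largest 16HBE14o- group.

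The step from 48 to 50 Mb held regions from rank 107 to 3366 in 16HBE14o- and from rank 258 to 9973 in Calu3. In 16HBE14o- 15 of its 56 regions stood in the strongest quintile of the list, and in Calu3 8 of 39 did. That quintile held 13.5% of the whole stretch in 16HBE14o- and 8.70% in Calu3, against 20.7% and 20.4% of the rest of the lists. Its 22 pairs were divided into 12 between 48 and 49 Mb and 10 between 49 and 50 Mb. Its strongest 16HBE14o- region had a signal of 107 and its strongest Calu3 region a fold enrichment of 18.1, at the places named above. Some of its sites, chosen here after their values were seen, had a higher percentile in 16HBE14o- than in Calu3. At chr20:49294875-49295114 the percentiles were 88.0 and 20.2. At chr20:49157480-49157719 they were 90.3 and 62.7, above the median of both lists. Other pairs of the step went the opposite way, such as chr20:48232258-48232497, at 61.9 in 16HBE14o- and 89.0 in Calu3. Another was chr20:49631747-49631986, at 28.7 and 71.7.

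The longest interval without a 16HBE14o- summit ran from 40322133 to 42086554, 1.76 Mb in which Calu3 had 12 regions, the strongest at rank 2330. The next ran from 37709922 to 39259989, 1.55 Mb with 14 Calu3 regions, the strongest at rank 1292. In Calu3 the longest ran from 53760331 to 54949148, 1.19 Mb in which 16HBE14o- had 7 regions, the strongest at rank 285. Each of these intervals thus held regions of the other list.

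Beside other places where the lists held unequal shares, the stretch had the lower median percentile in both lines. In Calu3 it differed little from chromosome 3 from 90 Mb onwards. Chromosome 14, with 215 regions of 16HBE14o- (6.34% of the list) and 265 of Calu3 (2.59%), had median percentiles of 47.9 and 58.6, and a q under 0.05 in 86.0% of its Calu3 regions, against 48.7% on the stretch. Its shared percentages, 32.6% in 16HBE14o- (95% interval 26.3 to 39.3) and 26.4% in Calu3 (95% interval 21.2 to 32.2), had intervals that overlapped those of the stretch. Chromosome 3 from 90 Mb onwards, with 101 regions of 16HBE14o- (2.98%) and 1039 of Calu3 (10.1%), had median percentiles of 48.3 and 27.1 and a q under 0.05 in 54.2% of its Calu3 regions. There the shared percentage was 68.3 in 16HBE14o- (95% interval 58.3 to 77.2) and 6.64 in Calu3 (95% interval 5.20 to 8.33). These differences between places were not tested, since the places were chosen with the counts known. The lines and the making of their lists cannot be told apart, because the lists differ in their columns and peak widths.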

How the data were processed

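BACH1 ChIP-seq was measured in 2 replicates each of Calu3 and 16HBE14o-. Per the labels, the authors reduced each pair of replicates by the irreproducible discovery rate to 1 peak list. Per the submitters' processing notes, positions are on hg19. Not given in the sources used here are the aligner, the caller, its filters and whether a control was used. In the Calu3 list the authors deposited, per peak, a fold enrichment (column 7, read as such from the format), a −log10 p, a −log10 q and a browser score in column 5. In the other list they deposited a signal score in column 7, a browser score in column 5 and a further score in column 9 that falls below 0, which was not read as a −log10 q. These values were used only to rank, describe or filter peaks within their list.

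Rows overlapping by 1 bp or more were merged, with the value and summit of the strongest row. Positions are 1-based. Intervals are 95% exact binomial. No test was run, since each line has 1 pooled list and the members were chosen with earlier results of these data known, as were all steps and naming rules. Regions named are the 10 strongest per list, the 10 pairs with the lowest rank sum, the 5 strongest per list with no region of the other list overlapping or within 500 bp of the summit, the 5 largest groups per list (summits under 25 kb apart), the 3 nearest the boundary on each side, and the longest empty intervals. Others were named after their values were seen. The code, tested on simulated data, used scipy 1.17.1, pandas 2.3.3, numpy 2.4.6 and matplotlib 3.10.9 under Python 3.11.15. Motifs and distances to genes were not analysed here.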

Additional observations from a re-analysis of the deposited data

How the results depend on the processing

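Of 35 recomputed values, 25 stayed within the interval of the value reported (or, for the fullest step, met the step reported) and 10 moved. Sharing moved most when the Calu3 list was shortened. With Calu3 cut to the length of the 16HBE14o- list, the shared percentage was 10.4 in 16HBE14o- (33 of 318) and 60.0 in Calu3 (33 of 55). These stood against 31.1 and 30.9 over the lists. When Calu3 kept its regions of q under 0.05 it was 21.7 and 41.1, against 43.5 and 19.5 over the lists. In the upper 50% of each list it was 28.1 and 40.5, against 57.7 and 19.0. The stretch then held less of each list, at 7.13% of 16HBE14o- and 1.64% of Calu3 in the upper 50%, and 2.24% of Calu3 when limited to q under 0.05. That limit also gave, in 2 settings added once the data had been seen, a median Calu3 percentile of 31.3 and put the fullest Calu3 step at 48 Mb with 30 regions in place of 60 Mb. These settings shorten the lists by construction. The overlap rule, the merging of rows, a boundary at 30 Mb, the ranking column and steps of 1 or 5 Mb did not move a value in this way. With a reciprocal overlap of 50%, though, 73 regions of each list were shared in place of 88. The shared percentages, 23.0 in 16HBE14o- and 21.2 in Calu3, were then just above the lower limits of 22.8 and 21.0. Sharing over the lists was not computed under that rule. No paired analysis was possible because the replicates of a line stand in 1 pooled list, and for that reason none could be left out. The planned motif and gene distance settings were not run. Read depth is unknown and sets which weak sites could be detected.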
